A study of Mus musculus with 9 samples.

Results

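The genes described here are the transforming growth factor beta (TGF-beta) genes of mouse liver, chosen by name: the ligands Tgfb1, Tgfb2 and Tgfb3, the receptors Tgfbr1 and Tgfbr2, the signalling Smads Smad2, Smad3 and Smad4, and the inhibitory Smads Smad6 and Smad7. All 10 were found among the 21470 genes of the expression table. Liver RNA was sequenced in 9 libraries, 3 from sham-operated mice (sham), 3 from mice whose bile duct was tied (BDL, bile duct ligation) and 3 from ligated mice given ligustilide (BDL+LIG). Ligation of the bile duct blocks the flow of bile and leads to cholestatic injury and fibrosis, and ligustilide (LIG) is a phthalide found in the oil of Angelica and Ligusticum roots. The comparison of BDL with sham addressed the ligation, and that of BDL+LIG with BDL addressed the compound in ligated mice. The design text states 10 mg/kg, but LIG titles bear a 20, and the dose is therefore left undetermined. Strain, age, sex and time after surgery are not stated by the labels. Nor do the labels say that libraries are separate mice, and p-values then measure only how these libraries spread, which may be technical.

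TGF-beta is secreted in a latent form, is stored in the matrix and is released by integrins and proteases. The active ligand binds the type II receptor encoded by Tgfbr2, which recruits and phosphorylates the type I receptor encoded by Tgfbr1. That receptor phosphorylates Smad2 and Smad3, which enter the nucleus with Smad4 and bind target genes. Smad7 blocks the type I receptor and brings ubiquitin ligases to it, and Smad6 acts mainly on the related bone morphogenetic protein (BMP) branch. Genes of both inhibitory Smads are themselves induced by ligands of the family, which makes them feedback inhibitors. In liver fibrosis TGF-beta is best known for driving hepatic stellate cells to become matrix-producing myofibroblasts.

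The RefSeq promoter table holds 300 bases around the transcription start (250 before it and 50 after it) on build GRCm38.p6, an earlier build than GRCm39, which the submitters' processing notes name. Promoters of 6 of the 10 genes were read from it by symbol. Those of Tgfb3, Smad2, Smad4 and Smad7 were not read. Promoters of a whole chromosome were left out of this reading, so a gene not read may still be in the table. Whether Smad7, the other inhibitory Smad, shares a motif with Smad6 is therefore not known here. The promoters below are shown because the results turn on these genes: Smad6, which changed with LIG, Smad3, a signalling counterpart with a smaller change, and Tgfb1 and Tgfbr2, which changed in both comparisons. They are chr9:64022010-64022309 on the minus strand for Smad6, chr9:63757945-63758244 on the minus strand for Smad3, chr7:25686752-25687051 on the plus strand for Tgfb1 and chr9:116175314-116175613 on the minus strand for Tgfbr2. Each is printed from 5′ to 3′ in the direction of transcription, with matches to the motifs searched in capitals.
Smad6: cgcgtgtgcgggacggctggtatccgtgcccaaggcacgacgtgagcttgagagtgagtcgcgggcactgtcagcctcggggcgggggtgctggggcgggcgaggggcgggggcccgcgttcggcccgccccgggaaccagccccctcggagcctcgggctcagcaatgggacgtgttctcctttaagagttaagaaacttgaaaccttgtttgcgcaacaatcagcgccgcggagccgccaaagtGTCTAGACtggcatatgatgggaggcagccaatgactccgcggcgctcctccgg
Smad3: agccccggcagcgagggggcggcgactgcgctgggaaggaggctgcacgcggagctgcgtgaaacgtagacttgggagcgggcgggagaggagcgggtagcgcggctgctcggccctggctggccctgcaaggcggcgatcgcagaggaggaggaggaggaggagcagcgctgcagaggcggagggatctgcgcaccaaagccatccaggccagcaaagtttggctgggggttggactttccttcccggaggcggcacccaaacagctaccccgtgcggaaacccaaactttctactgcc
Tgfb1: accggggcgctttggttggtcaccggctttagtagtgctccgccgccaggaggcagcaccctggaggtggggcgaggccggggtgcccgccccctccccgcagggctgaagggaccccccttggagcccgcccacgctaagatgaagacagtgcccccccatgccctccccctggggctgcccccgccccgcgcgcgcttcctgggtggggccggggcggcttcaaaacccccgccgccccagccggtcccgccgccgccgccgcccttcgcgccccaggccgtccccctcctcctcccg
Tgfbr2: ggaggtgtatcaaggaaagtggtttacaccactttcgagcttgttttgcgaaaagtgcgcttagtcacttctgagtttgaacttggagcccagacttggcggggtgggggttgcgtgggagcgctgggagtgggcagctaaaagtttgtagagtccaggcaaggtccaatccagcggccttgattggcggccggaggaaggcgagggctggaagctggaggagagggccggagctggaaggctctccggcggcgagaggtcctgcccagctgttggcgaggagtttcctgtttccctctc
3 motifs were searched on both strands: GTCTAGAC, the palindrome that Smad3 and Smad4 bind, CAGACA, the core of the CAGA box, and TGANTCA, the site of AP-1 factors such as Jun and Fos. The first and the second share the letters AGAC and were counted separately. The Smad6 promoter holds GTCTAGAC, which begins 4 bases before the start and is found in 70 of 32851 promoters of that length (0.213%). CAGACA is found in 21.0% of promoters, among them that of Tgfb2, where it begins 204 bases before the start, and 1 of the promoters listed for Tgfbr1, at 203 bases before. TGANTCA is found in 7.81% of promoters and in none of those read here. The promoters of Smad3, Tgfb1 and Tgfbr2 hold none of these letters in this window.

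Values are FPKM, fragments normalised to transcript length and library depth, as the authors deposited them. Whole fragments recovered from them summed to 30893085 to 37381337 per library. The tested TGF-beta genes were covered by 16 (Tgfb3 in a sham library) to 3883 fragments (Tgfbr2 in a BDL+LIG library). Sham library 1 stood apart from the other sham libraries on the second principal component, at 34.5 against -6.3 and -12.5. It was the highest of the 3 sham libraries in 7 of the 10 genes, as it was in 58.3% of all tested genes, so results that rest on it are given with and without it. Markers of hepatocytes summed to 58339 to 68757 FPKM in the sham libraries, wholly above the 45530 to 53042 of BDL and the 52036 to 55970 of BDL+LIG, which overlap. Alb alone made up 43.9% of this sum. Of 11 tested hepatocyte markers 2 rose and 1 fell after ligation, beside 22.9% and 6.76% of all tested genes, so the sum does not speak for each marker. The part of hepatocytes in the results was not tested. Mitochondrially encoded transcripts took 10.6 to 16.8% of FPKM in sham, 8.30 to 9.76% in BDL and 5.86 to 8.58% in BDL+LIG.

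Ligation was accompanied by higher ligand and receptor transcripts, while none of the 5 Smad genes of the set passed the test. LIG in ligated mice was accompanied by higher transcripts of Tgfb1, Tgfbr2, Smad4, Smad6 and Smad7. Changes are differences of log2(FPKM + 1) ± standard error from limma, with p-values adjusted by Benjamini and Hochberg over the 10142 genes tested, and this scale understates the change of genes near 1 FPKM. Of the 9 TGF-beta genes tested, 4 rose and 0 fell in BDL against sham, where 22.9% of all tested genes rose, 6.76% fell and 29.7% changed in either direction. In BDL+LIG against BDL 5 of 9 rose and 0 fell, where 9.98% of all genes rose, 1.79% fell and 11.8% changed. Tgfb3, Smad2 and Smad6 reached 1 FPKM in only 4, 4 and 5 libraries and entered the test only through the ligated groups, where they are high, so these counts over tested genes support nothing by themselves. Against sham, all 9 tested genes rose in BDL+LIG, where 43.7% of all genes rose, 8.92% fell and 52.6% changed. At an unadjusted p under 0.05 the falls were still 0 in limma in each comparison, and limma-voom on the recovered fragments also called 0 falls (5, 5 and 9 rises). The first and second of these comparisons share the BDL libraries, and the third shares a group with each, so they are not independent. Tgfb1 and Tgfbr2 rose in both of the first 2 comparisons, as 2.95% of all tested genes did. Smad4, Smad6 and Smad7 rose with LIG without a call after ligation, as did 6.45% of all tested genes. Counted by overlap alone, BDL lay wholly above sham in 5 of the 10 genes (33.7% of tested genes above, 11.3% below), BDL+LIG wholly above BDL in 8 (40.7% above, 10.5% below) and BDL+LIG wholly above sham in all 10 (45.7% above, 9.71% below). Tgfb1, Tgfb2, Tgfbr2 and Smad2 stepped up from sham to BDL to BDL+LIG without overlap, a pattern of 13.7% of tested genes. In these and in Smad3, Smad4, Smad6 and Smad7 the BDL+LIG libraries lay above all others, as in 27.9% of tested genes.

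**Figure D1:**
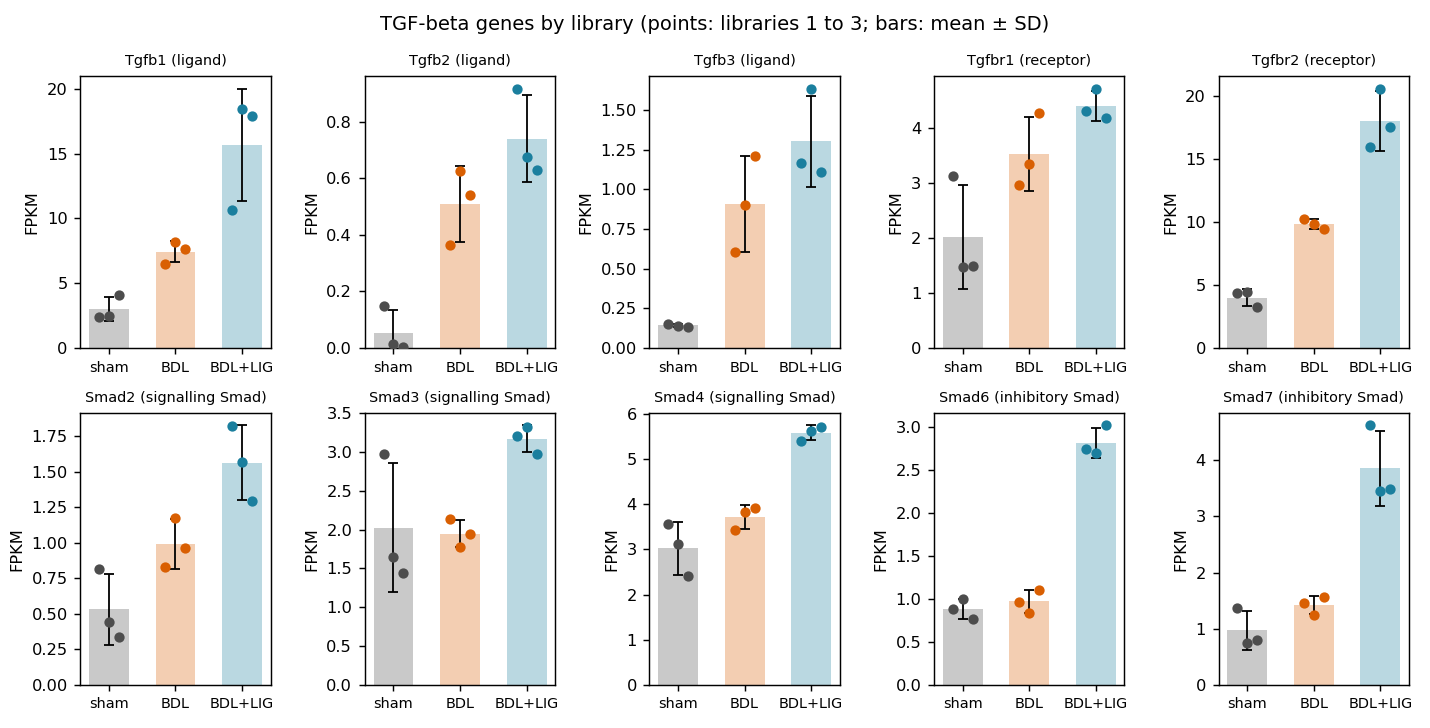
FPKM of the 10 TGF-beta genes (vertical axes, each panel on its own linear scale from 0) in sham, BDL and BDL+LIG livers, with points for libraries 1 to 3 and bars for the mean ± SD of 3 libraries. In Smad6 and Smad7 the BDL points lie at 0.843 to 1.56 FPKM near sham and the BDL+LIG points at 2.70 to 4.62 FPKM, whereas in Tgfb1 and Tgfbr2 the points climb from sham to BDL to BDL+LIG.

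Tgfb1 was the most abundant ligand transcript in every library. It measured 2.43, 2.49 and 4.09 FPKM in sham libraries 1 to 3, 6.52, 8.15 and 7.67 FPKM in BDL, and 10.7, 18.4 and 17.9 FPKM in BDL+LIG. The 3 groups did not overlap, and the first BDL+LIG library was the lowest of its group. The mean of 7.45 ± 0.842 FPKM in BDL was 2.48 times that of 3.01 ± 0.943 FPKM in sham (SD, n = 3, log2 change 1.10 ± 0.22, limma adjusted p = 0.00437). The mean of 15.7 ± 4.34 FPKM in BDL+LIG was 2.1 times that in BDL (0.95 ± 0.22, limma adjusted p = 0.0273). The second step was called in 15 of 24 alternatives, with adjusted p from 0.0106 to 0.114. Tgfb1 made up 81.4 to 96.7% of the summed FPKM of the 3 ligands, and that sum was 2.65 to 4.23 FPKM in sham, 7.49 to 9.68 in BDL and 12.7 to 20.7 with LIG. Tgfb1 is made by macrophages, platelets, endothelium and stellate cells among others, and bulk tissue cannot tell more cells of a type from more RNA per cell.

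Tgfb3, a ligand also made by mesenchymal cells, was scarce in sham at 0.154, 0.142 and 0.135 FPKM. The BDL libraries held 0.608, 0.900 and 1.21 FPKM, all above sham, and the BDL+LIG libraries held 1.17, 1.63 and 1.11 FPKM, which overlap BDL. Its mean in BDL was 6.30 times that in sham (log2 change 0.73 ± 0.15, limma adjusted p = 0.00419). It reached 1 FPKM in 4 libraries, all of ligated mice, and so entered the test only through the groups where it is high, and with no filter the adjusted p in limma was 0.0136. LIG moved it by 0.28 ± 0.15 (95% interval -0.04 to 0.60, limma adjusted p = 0.215), which did not pass.

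Tgfb2 never reached 1 FPKM and was below the level required for testing. Its recovered fragments numbered 46, 4 and 1 in sham (exact Poisson 95% intervals 33.7 to 61.4, 1.09 to 10.2 and 0.0253 to 5.57), 126, 217 and 160 in BDL, then 312, 227 and 213 with LIG. These intervals cover counting error only. They correspond to 0.149, 0.0133 and 0.00336 FPKM in sham, 0.362, 0.626 and 0.539 FPKM in BDL and 0.914, 0.675 and 0.630 FPKM in BDL+LIG. The groups did not overlap, and sham library 1 alone held 17.9 times the mean of the other sham libraries. With all 21470 genes in the fit and no filter, Tgfb2 differed by 0.52 ± 0.10 between BDL and sham (limma adjusted p = 0.0125) and by 0.21 ± 0.10 between BDL+LIG and BDL (limma adjusted p = 0.273). In GENCODE vM21, 2 of the 10 genes, Tgfb2 and Tgfb3, share exon sequence with genes on the opposite strand. The strand setting of the counting is not stated, so fragments of these genes and of those partners cannot be told apart.

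Both receptor genes were higher in ligated livers, and Tgfbr2 rose again with LIG. Tgfbr2, the receptor that binds the ligand first, measured 4.36, 4.42 and 3.27 FPKM in sham, 10.3, 9.86 and 9.41 FPKM in BDL and 15.9, 20.6 and 17.5 FPKM in BDL+LIG. The groups formed 3 separate steps with little spread within BDL. Its mean in BDL was 2.45 times that in sham (1.12 ± 0.14, limma adjusted p = 0.000239), and its mean in BDL+LIG was 1.83 times that in BDL (0.80 ± 0.14, limma adjusted p = 0.0134), which was called in 20 of 24 alternatives.

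Tgfbr1, the receptor kinase that phosphorylates Smad2 and Smad3, measured 3.12, 1.46 and 1.49 FPKM in sham, 2.97, 3.34 and 4.27 FPKM in BDL and 4.31, 4.71 and 4.18 FPKM in BDL+LIG. Sham library 1, at 2.11 times the mean of the other sham libraries, lay within the BDL range, and BDL and BDL+LIG overlapped. The rise after ligation was near the threshold (0.62 ± 0.20, limma adjusted p = 0.0441) and held in 9 of 23 alternative analyses, with adjusted p from 0.00110 to 0.169. Without sham library 1 it was 0.86 (limma adjusted p = 0.00110). With LIG the difference was 0.26 ± 0.20 (95% interval -0.19 to 0.72, limma adjusted p = 0.390), and its sign turned when a trend in gene length was removed. Per library, Tgfbr2 stood at 1.40 to 3.02 times the FPKM of Tgfbr1 in sham, at 2.21 to 3.46 times in BDL and at 3.69 to 4.37 times in BDL+LIG. BDL+LIG lay above both other groups in this ratio, and BDL overlapped sham.

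Of the 3 signalling Smads 0 passed the test after ligation in limma (1 at an unadjusted p under 0.05 and 1 by voom), and Smad4 alone rose with LIG. Smad3, the receptor-activated Smad that binds DNA directly, measured 2.98, 1.65 and 1.45 FPKM in sham and 2.13, 1.77 and 1.94 FPKM in BDL. Sham library 1 lay above all BDL libraries and the other sham libraries below them. The difference was -0.00 ± 0.18 (95% interval -0.40 to 0.39, limma adjusted p = 0.990), its sign varied with the processing, and it became 0.21 without sham library 1 (limma adjusted p = 0.146). With LIG Smad3 measured 3.21, 3.32 and 2.98 FPKM, all above BDL. The lowest of these, 2.979 FPKM, was above sham library 1, 2.977 FPKM, by far less than the spread within either group. The mean with LIG was 1.63 times that of BDL (0.50 ± 0.18, 95% interval 0.11 to 0.89), which did not pass (limma adjusted p = 0.0858) except without sham library 1 (limma adjusted p = 0.00703) and in the fit of the 2 groups alone. Against sham Smad3 was higher in BDL+LIG by 0.50 ± 0.18 (limma adjusted p = 0.0374), a call that held in 9 of 23 alternatives and turned to -0.02 when a trend in gene length was removed.

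Smad2, the other receptor-activated Smad, was the scarcest signalling Smad in every library, at 0.816, 0.443 and 0.338 FPKM in sham, 0.829, 1.18 and 0.965 FPKM in BDL and 1.82, 1.57 and 1.30 FPKM in BDL+LIG. The groups did not overlap, but neither step passed the test, at 0.39 ± 0.15 after ligation (95% interval 0.05 to 0.72, limma adjusted p = 0.0782) and 0.36 ± 0.15 with LIG (0.03 to 0.70, limma adjusted p = 0.126). Both steps passed without sham library 1, at 0.52 and 0.36 (limma adjusted p = 0.0102 and 0.0380), and the step with LIG in the fit of the 2 groups alone. From sham to BDL+LIG it rose by 0.75 ± 0.15 (limma adjusted p = 0.00209). The FPKM of Smad3 was 3.65 to 4.28 times that of Smad2 in sham, 1.51 to 2.57 times in BDL and 1.76 to 2.30 times in BDL+LIG. Sham thus lay wholly above both ligated groups, which overlapped.

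Smad4, the partner shared by the TGF-beta and BMP branches, was the most abundant Smad of the set in every library. It measured 3.56, 3.11 and 2.40 FPKM in sham, 3.43, 3.83 and 3.93 FPKM in BDL and 5.41, 5.63 and 5.72 FPKM in BDL+LIG. Sham and BDL overlapped (0.24 ± 0.14, 95% interval -0.06 to 0.54, limma adjusted p = 0.214), with a call without sham library 1 at 0.34 (limma adjusted p = 0.0440). BDL+LIG lay above both groups, at 1.50 times the BDL mean (0.48 ± 0.14, limma adjusted p = 0.0479). This call was kept in 8 of 23 alternatives and lost under median-of-ratios scaling, quantile normalization and removal of a length trend.

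Both inhibitory Smads rose with LIG, and after ligation alone 0 passed (0 at an unadjusted p under 0.05 and 0 by voom). Smad6, which inhibits mainly BMP receptors, measured 0.880, 1.01 and 0.763 FPKM in sham and 0.963, 0.843 and 1.11 FPKM in BDL, and these groups overlapped. In BDL+LIG it measured 2.74, 2.70 and 3.02 FPKM, all well above the other 6 libraries. Ligation moved it by 0.07 ± 0.12 (95% interval -0.20 to 0.33, limma adjusted p = 0.717), a direction that turned under median-of-ratios scaling, quantile normalization, removal of a length trend and voom with median-of-ratios scaling. The mean with LIG, 2.82 ± 0.174 FPKM, was 2.91 times the 0.971 ± 0.133 FPKM of BDL (0.96 ± 0.12, limma adjusted p = 0.00697), and it was called in 22 of 23 alternatives. It reached 1 FPKM in 5 libraries, of which 3 were those with LIG, and so passed the filter only through the group where it is high. With no filter the change had an adjusted p of 0.0231 in limma.

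Smad7, the inhibitor of the TGF-beta type I receptor, measured 1.36, 0.750 and 0.793 FPKM in sham, 1.46, 1.24 and 1.56 FPKM in BDL and 4.62, 3.46 and 3.49 FPKM in BDL+LIG. Sham library 1, at 1.77 times the mean of the other sham libraries, reached into the BDL range, and the BDL+LIG libraries lay above all others. The change after ligation was 0.31 ± 0.16 (95% interval -0.04 to 0.66, limma adjusted p = 0.171), and 0.45 without sham library 1 (limma adjusted p = 0.0219). The mean with LIG, 3.86 ± 0.663 FPKM, was 2.72 times the 1.42 ± 0.160 FPKM of BDL (1.00 ± 0.16, limma adjusted p = 0.0120), which was called in 21 of 23 alternatives. By size of rise Smad7 ranked 103 of 10142.

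**Figure D2:**
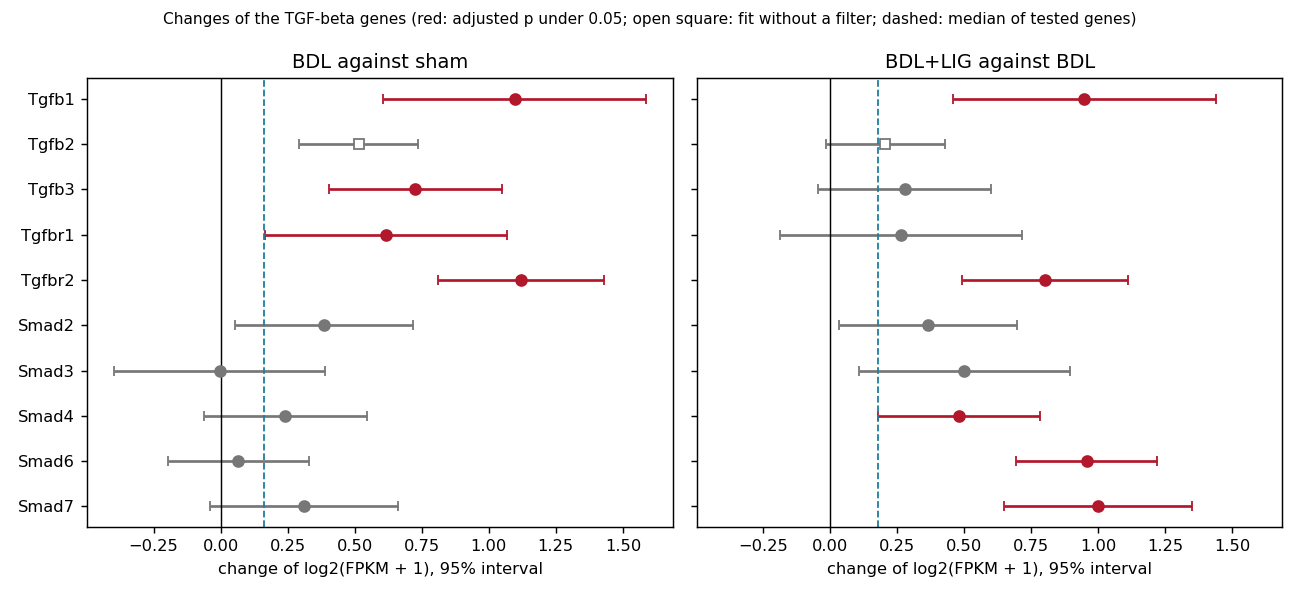
Change of log2(FPKM + 1) with its 95% interval (horizontal axis) for each TGF-beta gene after ligation (left) and with LIG in ligated mice (right), in red where the adjusted p is under 0.05, with Tgfb2 (open square) from the fit without a filter and the dashed line at the median of tested genes. Ligands and receptors carry the red intervals on the left, and Smad6 (0.96) and Smad7 (1.00) are the largest on the right beside Tgfb1 (0.95).

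Signalling and inhibitory Smads were then compared within each library. Ratios of FPKM within a library do not change when a library is scaled by 1 factor, whereas differences of log2(FPKM + 1) do, through the added 1. Quantile normalization and removal of a length trend move genes unequally and can change both. The summed FPKM of Smad6 and Smad7 was 2.24, 1.76 and 1.56 in sham, 2.42, 2.09 and 2.67 in BDL, then 7.37, 6.16 and 6.51 with LIG. That of Smad2, Smad3 and Smad4 was 7.35, 5.21 and 4.18 in sham, 6.39, 6.78 and 6.83 in BDL, then 10.4, 10.5 and 9.99 with LIG. From BDL to BDL+LIG the inhibitory sum grew 2.79-fold and the signalling sum 1.55-fold, and from sham to BDL they grew 1.29-fold and 1.19-fold. The ratio of inhibitory to signalling FPKM was 0.305, 0.337 and 0.372 in sham, 0.379, 0.308 and 0.390 in BDL, then 0.705, 0.586 and 0.651 with LIG. Sham and BDL overlapped in this ratio, and the lowest BDL+LIG library lay above the highest of the other 6. As a mean difference on the log2(FPKM + 1) scale, inhibitory minus signalling Smads averaged -0.45 ± 0.14 in sham, -0.47 ± 0.11 in BDL and 0.06 ± 0.09 with LIG. The step of 0.53 with LIG compares with a pooled SD within groups of 0.12, and the step of -0.02 after ligation lies within it. No p-value is given, since the genes were named with results of these data known.

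The shift was not equal in every pair of Smads. Smad7 stood at 0.458, 0.455 and 0.549 times the FPKM of Smad3 in sham, at 0.683, 0.702 and 0.802 times in BDL and at 1.44, 1.04 and 1.17 times in BDL+LIG. These groups formed 3 separate steps, and Smad7 exceeded Smad3 only in the BDL+LIG libraries. Smad6 stood at 0.295 to 0.610 times the FPKM of Smad3 in sham, at 0.452 to 0.571 times in BDL and at 0.815 to 1.01 times in BDL+LIG. On the log2 scale BDL+LIG lay above BDL in all 6 pairs of an inhibitory with a signalling Smad, and above sham in 5. In the exception, Smad6 minus Smad2, sham reached 0.48 and BDL+LIG spanned 0.41 to 0.81.

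**Figure D3:**
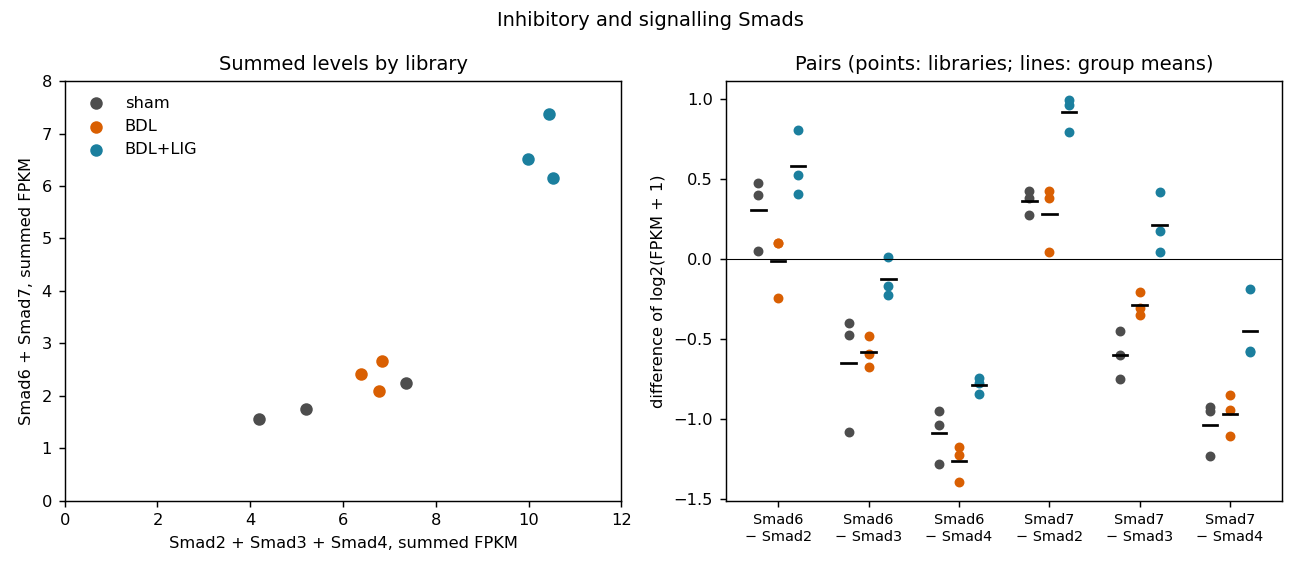
Left, summed FPKM of Smad6 and Smad7 (vertical) against that of Smad2, Smad3 and Smad4 (horizontal) in the 9 libraries. Right, differences of log2(FPKM + 1) between each inhibitory and each signalling Smad by library, with lines at the means of sham, BDL and BDL+LIG. The BDL+LIG libraries sit apart at 6.16 to 7.37 against 1.56 to 2.67 inhibitory FPKM in the other 6, and above BDL in each of the 6 pairs.

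The scaling of the libraries was checked because the median change of all tested genes was not 0. It was 0.16 in BDL against sham and 0.18 in BDL+LIG against BDL with FPKM as deposited. Under median-of-ratios scaling it was -0.04 and -0.00, and the share of rises among called genes went from 77.2% and 84.8% to 51.3% and 48.6%. Quantile normalization gave shares of 54.3% and 50.2%, removal of a trend in gene length 51.1% and 47.8%, and voom with median-of-ratios scaling 51.9% and 54.8%. Rescaling to TPM gave 95.2% with LIG. Under the median-of-ratios and quantile scalings the TGF-beta genes called with LIG were Tgfbr2, Smad6 and Smad7, and with the length trend removed they were Tgfb1, Smad6 and Smad7. Relative to the median of all genes, over the 6 scalings on the log2(value + 1) scale, the change with LIG was 0.72 to 0.95 for Smad6, 0.73 to 0.96 for Smad7, 0.74 to 0.85 for Tgfb1 and 0.51 to 0.69 for Tgfbr2. On the same footing it was 0.19 to 0.37 for Smad3, 0.13 to 0.33 for Smad4, 0.01 to 0.24 for Smad2 and -0.07 to 0.10 for Tgfbr1. After ligation it was 0.91 to 1.02 for Tgfbr2, 0.89 to 1.02 for Tgfb1 and 0.50 to 0.81 for Tgfb3, against -0.20 to -0.13 for Smad3 and -0.14 to -0.03 for Smad6. The 2 voom fits use log2 counts per fixed library total without an added 1 FPKM, so their values are not on this scale. Relative to the median they gave 1.32 for Smad6 and 1.21 for Smad7 with LIG in both fits, and 2.33 and 2.34 for Tgfb3 after ligation. Smad2 and Smad4 transcripts were longer than most, at percentiles 98.5 and 89.5 of the length of tested genes, Smad6 stood at 46.4 and Smad7 at 68.0.

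**Figure D4:**
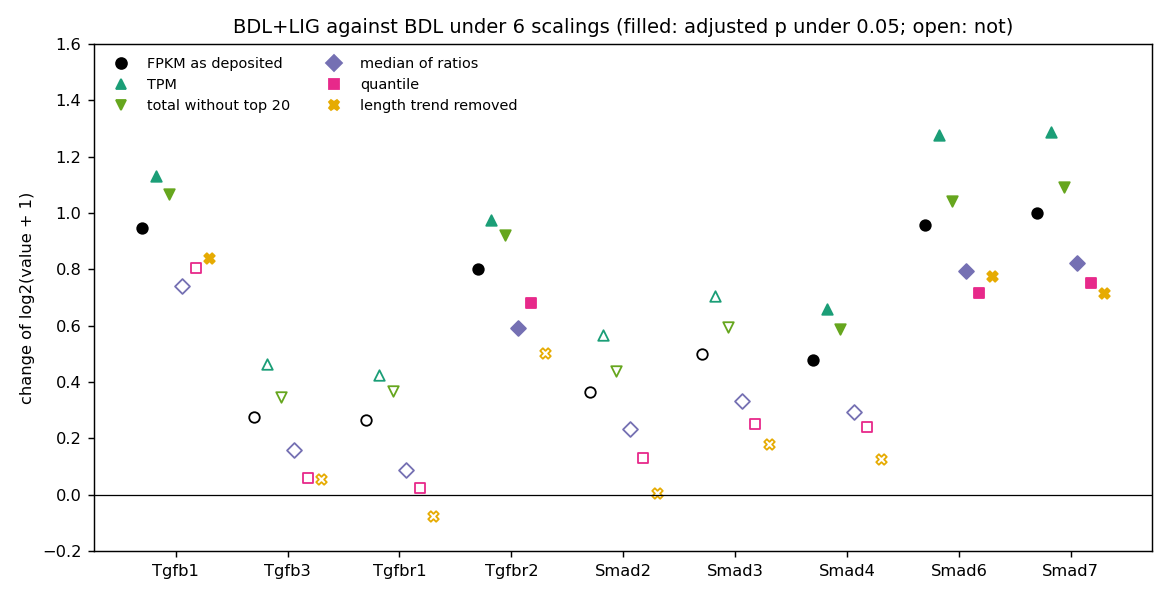
Change of log2(value + 1) from BDL to BDL+LIG (vertical axis) for the 9 tested TGF-beta genes under 6 scalings, filled where the adjusted p is under 0.05. Smad6 and Smad7 are filled under each of the 6, whereas Smad4 is filled under FPKM, TPM and the total without the top 20 genes only.

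The number of calls with LIG changed when single libraries were left out, which also leaves fewer libraries for the fit. In BDL+LIG against BDL 5 TGF-beta genes were called with all libraries, 0 without BDL library 2, 1 without BDL library 1 (Smad6), 2 without BDL library 3 (Smad6 and Smad7), 3 without BDL+LIG library 2 or 3 and 7 without sham library 1. Calls over all genes moved with them, from 1194 to 40 without BDL library 1, 68 without BDL library 3, 193 and 223 without BDL+LIG library 2 and 3 and 3137 without sham library 1. Without BDL library 2 limma called 0 of all tested genes, and 6 of the 9 TGF-beta genes had an unadjusted p under 0.05. The changes of Smad6 and Smad7 themselves moved little, to 0.91 to 1.01 and 0.89 to 1.06 over the left-out libraries. After ligation 7 TGF-beta genes were called without sham library 1 against 4 with it, while calls over all genes went from 3008 to 4628.

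Other genes of the pathway were taken from lists by role, of which 86 of 123 genes were tested. Some averaged under 1 FPKM in sham, among them Thbs1, Acvrl1, Pmepa1, Skil, Sox4, Atf3, Fos, Cdkn1a and Timp1. These entered the test only through the ligated groups, where they are high. Counts over the tested genes of these lists therefore support nothing by themselves. After ligation 49 rose and 1 fell (54 and 4 at an unadjusted p under 0.05, 46 and 2 by voom), where 22.9% of all tested genes rose and 6.76% fell. The median change after ligation was 0.60 against 0.16 over all tested genes. With LIG 23 rose and 0 fell (40 and 0 at an unadjusted p under 0.05, 26 and 0 by voom). Of all tested genes 9.98% rose and 1.79% fell with LIG. The median with LIG was 0.40 against 0.18. From sham to BDL+LIG 70 rose and 0 fell, where 43.7% of all tested genes rose and 8.92% fell. The count with LIG went to 0 without BDL library 1 or 2 (33 and 36 at an unadjusted p under 0.05), to 1 without BDL library 3, to 13, 4 and 5 without BDL+LIG library 1, 2 and 3 and to 39 without sham library 1. It was 6 under median-of-ratios scaling and 6 with a length trend removed.

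Of 16 tested genes that store or activate the latent ligand, 10 rose after ligation and 6 with LIG. Of all tested genes 22.9% and 9.98% rose. Tgm2, a transglutaminase that crosslinks latent complexes into matrix, averaged 31.6 ± 1.18 FPKM in sham and 165 ± 20.6 in BDL (2.34 ± 0.18, limma adjusted p = 1.1e-05), with 144 ± 35.5 after LIG. The membrane protease gene Mmp14 went from 7.41 ± 0.637 to 25.2 ± 2.19 FPKM after ligation (1.64 ± 0.11, limma adjusted p = 5.95e-06). Thbs1, whose product thrombospondin activates latent TGF-beta, rose from 0.0838 ± 0.0421 FPKM in sham to 1.35 ± 0.373 in BDL (1.11 ± 0.14, limma adjusted p = 0.000234) and reached 2.62 ± 0.0409 with LIG (0.64 ± 0.14, limma adjusted p = 0.0219). The integrin gene Itgb5 likewise rose from 10.5 ± 0.690 to 21.5 ± 2.33 and then 33.3 ± 2.29 FPKM (0.96 ± 0.12 and 0.61 ± 0.12, limma adjusted p = 0.000223 and 0.0158). Furin, which cleaves the ligand precursors, rose with LIG from 24.6 ± 0.799 to 44.0 ± 4.09 FPKM (0.81 ± 0.14, limma adjusted p = 0.0130).

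Among 11 tested co-receptor and accessory receptor genes 3 rose after ligation and 2 with LIG, where 22.9% and 9.98% of all tested genes rose, and the share after ligation is near that background. Fkbp1a, which encodes the FKBP12 protein that holds the type I receptor inactive, rose from 23.2 ± 1.30 FPKM in sham after ligation (1.07 ± 0.15, limma adjusted p = 0.000413). Vasn, whose product traps TGF-beta, rose by 0.87 ± 0.16 (limma adjusted p = 0.00279). Acvrl1, the endothelial type I receptor ALK1, rose by 0.58 ± 0.18 (limma adjusted p = 0.0372) and stood at 1.26 ± 0.149 FPKM in BDL and 2.43 ± 0.879 with LIG, which did not pass (limma adjusted p = 0.0643). Eng, which encodes the endothelial co-receptor endoglin, averaged 7.54 ± 1.81 FPKM in sham and 5.84 ± 0.349 in BDL, and rose with LIG (1.20 ± 0.20, limma adjusted p = 0.0128). Dab2, an adaptor of receptor trafficking, rose with LIG from 1.66 ± 0.0222 to 3.18 ± 0.255 FPKM (0.65 ± 0.17, limma adjusted p = 0.0382) and did not pass after ligation (limma adjusted p = 0.0853).

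All 8 tested extracellular binders of the ligand or its relatives rose after ligation, of 13 listed, and 4 of the 8 rose with LIG. Of all tested genes 22.9% and 9.98% rose. Lum, a small proteoglycan, went from 1.24 ± 0.629 to 5.26 ± 1.28 FPKM after ligation (1.51 ± 0.23, limma adjusted p = 0.000957). Fstl1 went from 0.392 ± 0.0713 to 3.20 ± 0.531 FPKM (1.59 ± 0.25, limma adjusted p = 0.00110), and Fn1, the fibronectin that anchors latent complexes, from 113 ± 18.0 to 194 ± 3.65 (0.79 ± 0.14, limma adjusted p = 0.00218). Adamtsl2 rose after ligation (0.94 ± 0.17, limma adjusted p = 0.00213) and again with LIG (0.84 ± 0.17, limma adjusted p = 0.0172). Fstl1 and Adamtsl2, at 0.392 and 0.621 FPKM in sham, entered the test only through the ligated groups, where they are high. The count of 8 therefore supports nothing by itself. Of the untested binders, Htra1 and Fmod overlapped between BDL and sham, and Fstl3, Htra3 and Fbn1 lay wholly above sham in BDL. Emilin1, which encodes a matrix protein that limits processing of the TGF-beta precursor, rose with LIG from 2.98 ± 0.283 to 8.28 ± 2.94 FPKM (1.18 ± 0.20, limma adjusted p = 0.0130), and the activin trap gene Fst from 2.01 ± 0.682 to 3.70 ± 0.612 (0.66 ± 0.17, limma adjusted p = 0.0389).

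Regulators inside the cell were a further role. The list of corepressors, ubiquitin ligases and phosphatases also holds deubiquitinase genes such as Usp4 and Usp15. It is therefore not a list of negative regulators only. Of its 17 tested genes 6 rose after ligation, beside 22.9% of all tested genes. With LIG 2 rose, a share near the 9.98% of all tested genes. The medians were 0.25 and 0.28 against 0.16 and 0.18 over all tested genes. The corepressor genes Ski and Tgif1 rose after ligation by 0.95 ± 0.15 and 0.88 ± 0.13 (limma adjusted p = 0.00106 and 0.000777), and Pmepa1, whose product sequesters receptor-activated Smads, by 0.80 ± 0.18 (limma adjusted p = 0.00788). Skil, a corepressor gene that is itself a target of the pathway, averaged 0.503 ± 0.344 FPKM in sham, 1.39 ± 0.156 in BDL and 2.60 ± 0.194 with LIG, and rose at both steps (0.69 ± 0.16 and 0.59 ± 0.16, limma adjusted p = 0.00940 and 0.0429). Smurf2, a ubiquitin ligase that Smad7 brings to the receptor, rose with LIG from 6.66 ± 0.322 to 9.23 ± 0.683 FPKM (0.42 ± 0.11, limma adjusted p = 0.0443). Its relative Smurf1 stood at 3.52 ± 0.496 in BDL and 5.19 ± 0.309 in BDL+LIG and did not pass (0.46 ± 0.17, limma adjusted p = 0.0885).

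Of 9 tested Smad partners and coactivators 5 rose after ligation and 4 with LIG, where 22.9% and 9.98% of all tested genes rose. The stress factor genes Atf3, Jun and Fos rose after ligation by 2.66 ± 0.16, 2.25 ± 0.17 and 2.19 ± 0.22 (limma adjusted p = 2.85e-06, 9.16e-06 and 5.89e-05). Sox4 rose at both steps (1.03 ± 0.14 and 0.61 ± 0.14, limma adjusted p = 0.000470 and 0.0266). With LIG Zeb2, a repressor that binds Smads, rose from 0.881 ± 0.116 to 2.08 ± 0.560 FPKM (0.69 ± 0.15, limma adjusted p = 0.0217), and the acetyltransferase gene Ep300 rose by 0.74 ± 0.21 (limma adjusted p = 0.0451). Zeb2 averaged 0.347 FPKM in sham and passed the filter only through the BDL+LIG libraries, where it is high.

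Of 27 tested genes known as targets of TGF-beta 19 rose and 1 fell after ligation, with a median of 0.80 against 0.16. With LIG 6 rose and 0 fell (11 and 0 at an unadjusted p under 0.05, 6 and 0 by voom), with a median of 0.43 against 0.18. Of all tested genes 22.9% rose and 6.76% fell after ligation, and 9.98% rose and 1.79% fell with LIG. The cell cycle inhibitor gene Cdkn1a went from 0.328 ± 0.212 to 25.9 ± 3.21 FPKM after ligation (4.35 ± 0.17, limma adjusted p = 4.74e-07) and averaged 25.3 ± 4.37 with LIG. Timp1, an inhibitor of matrix proteases, went from 0.148 ± 0.0181 to 8.89 ± 1.33 FPKM (3.10 ± 0.25, limma adjusted p = 1.43e-05) and averaged 8.74 ± 3.72 with LIG. Rhob, a small GTPase gene, rose by 1.52 ± 0.12 after ligation (limma adjusted p = 1.58e-05). Col4a1, a collagen gene of basement membranes, rose from 1.83 ± 0.415 to 11.6 ± 0.970 and then 19.3 ± 2.88 FPKM, and its second step was 0.68 ± 0.15 (limma adjusted p = 0.0238). Tgfbi, a matrix protein gene named for its induction by TGF-beta, rose with LIG from 16.8 ± 1.10 to 37.6 ± 6.85 FPKM (1.10 ± 0.17, limma adjusted p = 0.0102). Angptl4, an inhibitor of lipoprotein lipase that also responds to fasting, fell after ligation from 48.3 ± 10.5 to 32.2 ± 7.22 FPKM (-0.57 ± 0.19, limma adjusted p = 0.0440) and rose with LIG to 58.3 ± 5.26 (0.86 ± 0.19, limma adjusted p = 0.0231).

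**Figure D5:**
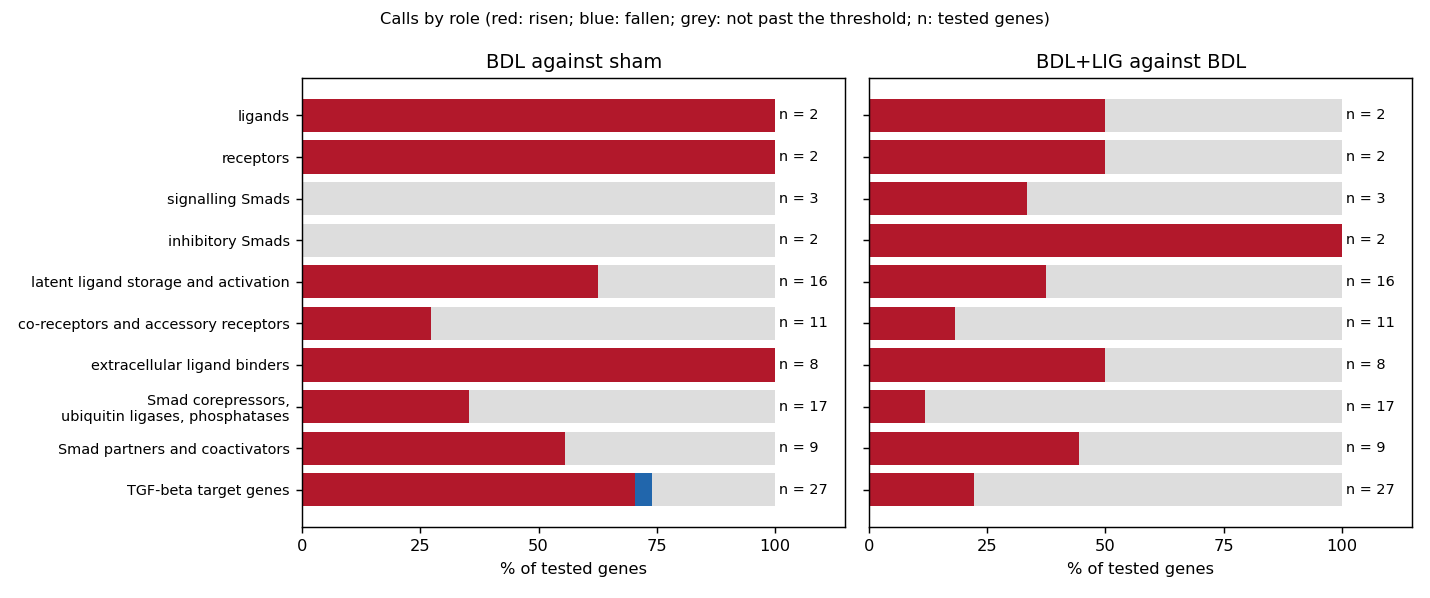
Percent of tested genes in each role (horizontal axis, n at the bar's end) that rose (red), fell (blue) or did not pass the threshold (grey) after ligation (left) and with LIG in ligated mice (right). After ligation the 2 ligands and 2 receptors tested are red and the 5 Smads grey, and with LIG both inhibitory Smads and 1 of 3 signalling Smads are red.

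Markers of several cell types moved with these genes. After ligation 12 of 12 tested Kupffer cell markers, 10 of 12 of monocytes and macrophages, 8 of 9 of cholangiocytes and 7 of 13 of stellate cells and myofibroblasts rose, beside 22.9% of all tested genes. Their summed FPKM went from 158 to 417 in sham to 685 to 929 in BDL for Kupffer cells, from 44.6 to 59.0 to 252 to 357 for monocytes and macrophages, from 25.1 to 45.1 to 419 to 617 for cholangiocytes and from 32.2 to 60.3 to 83.6 to 89.4 for stellate cells. With LIG 13 of 13 tested endothelial markers rose, a list of 15 that includes Eng, with sums of 56.9 to 60.1 FPKM in BDL and 98.8 to 149 in BDL+LIG, against 45.7 to 54.8 in sham, where 2 rose and 1 fell after ligation. Stellate cell markers again rose in 7 of 13, with sums of 131 to 206 in BDL+LIG, and this list shares Dcn, Acta2 and Col1a1 with the pathway lists. Kupffer cell and monocyte and macrophage markers rose with LIG in 1 of 12 each, beside 9.98% of all tested genes, with sums of 832 to 1736 and 274 to 555. Cholangiocyte markers rose with LIG in 0 of 9 (2 at an unadjusted p under 0.05 and 0 by voom). Their sum of 235 to 474 FPKM reached below that of BDL and overlapped it. Markers of platelets, another store of Tgfb1, summed to 1.10 to 2.50 FPKM in sham, 2.49 to 7.20 in BDL and 3.99 to 5.38 with LIG. Pf4 made up 70.6% of this sum and was the only platelet marker tested. Of the others, Itga2b lay wholly below sham in BDL (means 0.517 and 0.324 FPKM), Gp1bb wholly above (0.0136 and 0.126), and the rest overlapped. The cholangiocyte and the monocyte and macrophage sums were likewise mostly 1 gene, Spp1 (86.6%) and Lyz2 (72.9%). No marker of these lists was at 0 in all 9 libraries. The part of these cell types in the changes of ligands, receptors and Smads was not tested.

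Across the 9 libraries the tested TGF-beta genes varied together to different degrees. Pearson's r of log2(FPKM + 1), given as a description over libraries that share the group differences, had a median of 0.84 over the 36 pairs and ran from 0.53 (Smad3 with Tgfb3) to 0.94, which Smad6 with Smad7, Smad4 with Smad7, and Tgfbr2 with Tgfb1 and with Tgfb3 reached. Among all tested genes the patterns most like that of Smad6 were those of Pskh1, Nceh1 and Otud3 (r = 0.99, 0.98 and 0.98). Those most like Smad7 were Cnnm3, St6galnac6 and Sik2 (each 0.99), and those most like Smad3 were Dhx30, Nr2c2 and Csnk2a2 (each 0.99). For Smad4 they were Ppp3cb, Rrp8 and Ccny (each 0.99) and for Smad2 they included Secisbp2l and Arhgef5 (each 0.98). Tgfb1 was most like Rtn3, the integrin gene Itgb1 and Necap2 (each 0.99), Tgfb3 most like Src, F2rl1 and Smad1 (0.99 each), Tgfbr1 most like Btaf1, Nkapd1 and Strn3 (each 0.99) and Tgfbr2 most like Ttl, Pcyox1 and Fosl2 (each 1.00).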

How the data were processed

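The authors deposited 1 table of FPKM values for 21470 genes in 9 liver libraries, tied to samples by title. The labels' protocols name TRIzol extraction and a VAHTS Universal V6 library kit. Tools listed in the submitters' processing notes are fastp, HISAT2 2.1.0 and DESeq2, with build GRCm39. Annotation and counter: not given in the sources used here. FPKM carry no counts, but steps between values gave whole fragments for 19445 of 19449 genes above 0 in at least 2 libraries (99.979%, within 0.02 fragments), all but Alb, Apoe, COX1 and Nrg1. No libraries of a group were alike within counting error (median chi-square per gene 2.57 to 24.2).

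Under R 4.3.3, limma 3.58.1 (lmFit, then eBayes with a trend) was run on log2(FPKM + 1) over the 9 libraries jointly, for genes of at least 1 FPKM in at least 3 libraries (10142). The threshold was an adjusted p of 0.05. An exact two-sided permutation test of 3 against 3 libraries cannot give a p below 0.1. Alternatives changed the pseudocount, the filter, the scaling, the moderation, the groups fitted, the replicate block, a loess trend in gene length (span 0.4) and each library left out, and used voom on recovered fragments. Voom with median-of-ratios scaling was added after seeing the data. The fit and the recovery of fragments were tested on simulated data. Members, lists and tests were chosen with earlier results of these data known. Named besides the members are, of each pathway list, up to 4 genes with the smallest p in BDL against sham and up to 3 in BDL+LIG against BDL, and for each member the 3 genes with the highest r, leaving out clones and predicted genes. One gene that this rule names for Smad2 is not reported here. Symbols were matched to RefSeq promoters (GRCm38.p6) and GENCODE vM21 exons, with no coordinates moved between builds. Other marker lists that were run (neutrophils, T or NK cells, B or plasma cells, red blood cells, exocrine pancreas and mesothelium) rose in 4 of 4, 0 of 1, 0 of 2, 4 of 5, 0 of 2 and 1 of 2 tested genes after ligation, and in 0, 0, 1, 0, 0 and 0 with LIG. They fell in 0, 0, 0, 1, 2 and 0 after ligation and in 1, 0, 0, 2, 0 and 1 with LIG. In the mesothelium list the gene that rose after ligation was the keratin gene Krt8, which made up 99.7% of the list's summed FPKM. Msln of that list did not pass (limma adjusted p = 0.170). Of 11 tested hepatocyte markers 2 rose and 1 fell after ligation, and the 1 tested platelet marker rose.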

Additional observations from a re-analysis of the deposited data

How the results depend on the processing

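Of the changes of single TGF-beta genes recomputed under alternatives, 547 kept their direction and their side of the threshold, 61 lost the call, 8 gained one and 11 turned. The turned ones were small. For Smad3 after ligation (-0.00) they were 0.0124 and 0.0023 with pseudocounts of 0.1 and 0.5, 0.0639 in TPM, 0.21 without sham library 1 and 0.0394 without BDL library 2, in a range of -0.1402 to 0.2105 over the left-out libraries. For Smad6 after ligation (0.07) they were -0.0620 with median-of-ratios scaling, -0.16 after quantile normalization, -0.16 with the length trend removed and -0.12 by voom with median-of-ratios scaling. With the length trend removed Tgfbr1 turned to -0.0752 with LIG and Smad3 to -0.0180 against sham. Requiring a mean of 5 FPKM left 2 TGF-beta genes, both called in each comparison (2, 2 and 2), and 28, 9 and 38 called pathway genes of 50, 23 and 70. With LIG 3 TGF-beta genes were called instead of 5 with no filter, after median-of-ratios scaling or quantile normalization, with the length trend removed and voom with median-of-ratios scaling. The 23 pathway genes called with LIG became 11 with a pseudocount of 0.1, 10 with no filter, 6 with median-of-ratios scaling, 37 in TPM, 13 after quantile normalization, 40 with only the compared groups fitted, 6 with the length trend removed and 11 by voom with median-of-ratios scaling. Leaving out each library gave 3 to 7, 0 to 7 and 8 to 9 called TGF-beta genes and 37 to 61, 0 to 39 and 64 to 77 called pathway genes in the 3 comparisons. Inhibitory minus signalling Smads changed with LIG by 0.79 and 0.65 with pseudocounts of 0.1 and 0.5 (0.53 with 1), and against sham by 0.74 with 0.1 (0.51 with 1). Left-out libraries gave -0.10 to 0.04 after ligation, 0.47 to 0.58 with LIG and 0.43 to 0.57 against sham. Over all genes, called genes in BDL+LIG against BDL numbered 1194, 669 with median-of-ratios scaling (325 up), 502 with the length trend removed (240 up) and 2056 in TPM (1957 up). The cause of these shifts was not tested.

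Same-numbered libraries correlated at -0.13 to 0.28 in their deviations from group means. Differently numbered libraries were not compared, so these values cannot decide whether the numbers pair the samples. With the replicate number as a block 3, 4 and 9 TGF-beta genes and, with LIG, 11 pathway genes were called. Genes under 1 FPKM, Tgfb2 above all, are limited by few fragments in sham.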

Other observations

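The Smads of the BMP branch, which share Smad4 and lie downstream of the receptors that Smad6 inhibits, were measured alongside. Smad9 measured 2.24, 1.43 and 1.94 FPKM in sham, 0.990, 0.880 and 0.425 FPKM in BDL and 2.69, 1.94 and 2.64 FPKM in BDL+LIG. The BDL libraries lay below the other 6, which overlapped. Smad9 fell by 0.71 on the log2 scale after ligation (limma adjusted p = 0.0119) and rose with LIG by 0.96 ± 0.17 (limma adjusted p = 0.0140). Smad1 rose after ligation by 0.41 ± 0.13 (limma adjusted p = 0.0355), from 3.58 to 3.76 FPKM in sham to 4.50 to 5.89 in BDL, and voom did not call it. Smad5 passed in neither comparison, at 0.27 ± 0.23 and 0.58 ± 0.23 (limma adjusted p = 0.415 and 0.117).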
